A study of Macaca mulatta with 20 samples.

Results

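Whole blood RNA of male rhesus macaques taken 2 days after X-irradiation of the thorax was compared with whole blood RNA taken before irradiation. The comparison uses the 10 arrays titled Day 2 (5 arrays) and Pre-irradiation (5 arrays), of 20 arrays in the series, and the arrays were paired by the replicate number in their titles. Animals of both groups belonged to a model of lung injury in which a dose of 10 Gy was aimed at the midplane of the thorax. The Day 2 group is blood drawn 2 days after that dose, and the Pre-irradiation group is blood of the same model drawn before any dose, with no sham-irradiated group among the arrays. By the labels 8 animals were bled, and by the methods 1 RNA sample was pooled from 2 animals. The labels tie neither the replicate numbers to single animals nor the pool to an array.

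Levels were read on Agilent Whole Human Genome arrays, whose probes are 60 bases long and were designed on human transcripts, after globin transcripts had been depleted from the RNA. A probe's level is given here as the log2 of its processed signal minus the 75th percentile of that array, so that 0 is the 75th percentile and a difference of 1 is a 2-fold difference. Differences are day 2 minus pre-irradiation on this log2 scale, and errors of differences are the standard errors (SE) of a paired limma model over 5 pairs. Whole blood is a mixture, and fewer cells of a type and less RNA per cell cannot be told apart in such samples.

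Radiation to the chest hits the blood that passes through the heart and lungs, together with the marrow of the ribs, sternum and vertebrae in the field. Lymphocytes die readily after irradiation, and p53 is the transcription factor that responds to DNA breaks by inducing genes of cell cycle arrest, repair and apoptosis. Neutrophils live for days at most and are replaced from the marrow, while platelets have no nucleus and carry RNA inherited from megakaryocytes. Natural killer (NK) cells and cytotoxic T cells kill through perforin and granzymes and carry killer lectin-like receptors. C1q is the recognition molecule of the classical complement pathway, is built from A, B and C chains, and is made mainly by monocytes, macrophages and dendritic cells rather than by the liver.

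Between 50.9% and 58.7% of spots were well above background on the pre-irradiation arrays and between 54.7% and 58.4% on the day 2 arrays. The arrays lay on 5 slides, each with 1 array of each group, and the pre-irradiation and day 2 arrays of a slide carried different replicate numbers. Every pre-irradiation array lay at position 1 of its slide and every day 2 array at position 2, so that position and group cannot be told apart. The tested defining markers of erythroid cells, platelets, mature neutrophils, T cells, B cells, NK cells and monocytes were well above background on each of the 10 arrays, except ITGB3 of platelets on 1 pre-irradiation array. Of other defining markers, FCGR3B had no probe, and ELANE, GP1BA, MS4A1, PAX5, CLEC9A, CLEC4C and TOP2A did not pass the filter on low signal.

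Of 34127 probes, 19961 were tested, and 12 of them (0.0601%) passed both a p-value under 0.005 and a false discovery rate under 10%, and these are the called probes. Of these 12, 10 rose and 2 fell at day 2. With no limit on the false discovery rate, 379 probes (1.9%) were higher and 131 (0.656%) were lower at a p-value under 0.005, and the false discovery rate of these 510 probes together was 19.6%. The median difference over all tested probes was -0.04, and 44.9% of them were higher at day 2. The number of called probes turned on single replicates, since it was 588 without replicate 2, 3 without replicate 3 and 0 without replicate 1, 4 or 5. It was also 0 without the pairing. Likewise 834 probes were at p under 0.005 without replicate 2, against 224, 324 and 230 without replicates 1, 3 and 4. Genes are written to have risen or fallen only where their probe was called, and counts within gene lists use p under 0.005 alone. Some lists are also counted at p under 0.05, which 2997 of the 19961 tested probes reached in either direction. The lists were chosen with earlier results of these data known. They read each gene from its brightest tested probe, whereas shares over all probes count every tested probe, so such shares are a description only.

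**Figure D1:**
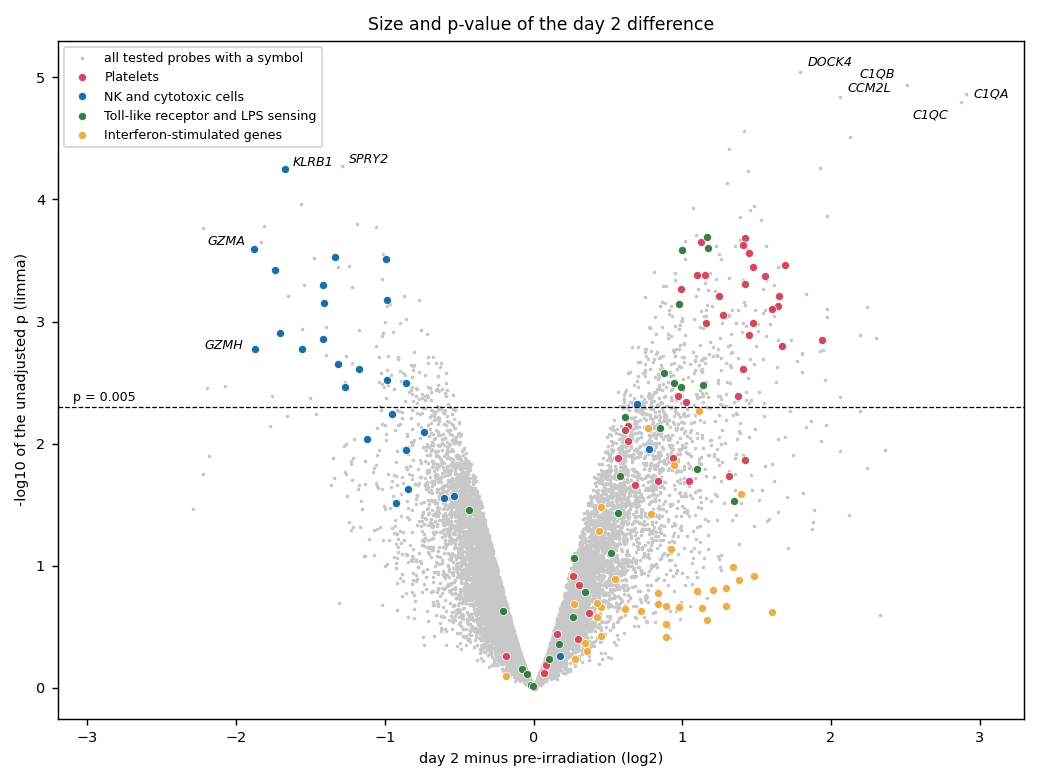
Difference between day 2 and pre-irradiation (x axis, log2) against the unadjusted p-value of the paired limma model (y axis, -log10) for each tested probe with a gene symbol. Platelet genes other than TPM1 lie to the right of 0 and all but 3 of the 28 NK and cytotoxic genes to the left, while interferon-stimulated genes reach differences up to 1.60 without passing the threshold of 0.005 (dashed line).

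The complement genes C1QA, C1QB and C1QC, which encode the A, B and C chains of C1q, rose at day 2, and C1QA had the largest difference of all tested probes. Their genes lie side by side on human chromosome 1 (hg19), where the C1QC probe covers chr1:22974089-22974148 and the C1QB probe chr1:22987795-22987854, both on the plus strand. The first 30 of the 60 bases of these probes are printed from 5′ to 3′, with those of the KLRB1 probe (chr12:9751115-9751174, minus strand) and the SPRY2 probe (chr13:80910622-80910681, minus strand) that fell, since these are the human sequences against which macaque transcripts were read. No base is capitalised because no part of a probe was singled out.
C1QB: caccgacaagaactcactactgggcatgga
C1QC: gcagcggcgtcaaagtggtcaccttctgtg
KLRB1: tcaacccttggaataacagtctagctgatt
SPRY2: agaacttggtgacccatgtattgcataagc

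The C1QA level was -3.14, -3.99, -2.34, -2.89 and -2.92 in pre-irradiation replicates 1 to 5 and 0.29, -2.04, -0.20, 0.15 and 1.05 in day 2 replicates 1 to 5. Every day 2 array lay above every pre-irradiation array, and the lowest day 2 array was that of replicate 2. C1QA rose by 2.91 ± 0.30 (SE, n = 5 pairs), or 7.51-fold, with an adjusted p-value of 0.0639. The C1QB level was -0.78, -1.43, 0.53, -0.10 and -0.22 in pre-irradiation replicates 1 to 5 and 2.20, 0.84, 2.06, 2.36 and 3.08 in day 2 replicates 1 to 5. Here too the groups did not overlap, and the rise of 2.51 ± 0.26 (SE, n = 5 pairs), or 5.69-fold, had an adjusted p-value of 0.0639. The C1QC level was -5.37, -6.36, -5.94, -6.33 and -6.06 in pre-irradiation replicates 1 to 5 and -2.25, -4.21, -4.12, -2.89 and -2.20 in day 2 replicates 1 to 5, again with no overlap. The C1QC probe was well above background on 0 pre-irradiation and 3 day 2 arrays, so its rise (adjusted p = 0.0639) is given as at least 1.82-fold. Such a bound sets the mean of the brighter group against the mean of a floor over the arrays of the dimmer group. The floor of an array is its dimmest detected signal, or the probe's own level where that is higher. In each pair the signals of the 3 chains were higher at day 2, by 3.43, 1.95, 2.15, 3.05 and 3.97 for C1QA in pairs 1 to 5, and pair 5 had the largest difference for C1QA and C1QB. The monocyte markers CD14, CSF1R and CD163 were 0.58 to 0.83 higher in the same comparison, with pair values for the whole monocyte list from 0.37 to 1.01, and their part in the C1q result was not tested.

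Another 6 probes that rose were well above background on at least 4 day 2 arrays. DOCK4, an activator of small GTPases that guide cell movement, stood at -2.98, -3.53, -3.42, -3.71 and -2.41 in pre-irradiation replicates 1 to 5 and -0.89, -2.09, -1.15, -2.21 and -0.74 in day 2 replicates 1 to 5. The groups did not overlap, and DOCK4 rose by 1.79 ± 0.18 (SE), or 3.47-fold, with an adjusted p-value of 0.0639. LPL encodes lipoprotein lipase, which releases fatty acids from circulating triglycerides and is also made by macrophages. Its level was -0.15, 0.43, 0.21, 0.08 and 0.52 in pre-irradiation replicates 1 to 5 and 0.88, 1.55, 1.47, 1.81 and 1.93 in day 2 replicates 1 to 5, without overlap between the groups. It rose by 1.31 ± 0.16 (SE), or 2.48-fold, with an adjusted p-value of 0.0965 and a narrow range over the pairs, from 1.03 to 1.72.

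NCKAP1 is a subunit of the WAVE complex, which drives branching of actin filaments. Its level was -5.37, -4.14, -5.94, -4.19 and -5.37 in pre-irradiation replicates 1 to 5 and -3.28, -2.90, -3.91, -2.78 and -2.51 in day 2 replicates 1 to 5, with every day 2 array above every pre-irradiation array. The probe was well above background on 0 pre-irradiation and 4 day 2 arrays, so its rise (adjusted p = 0.0965) was at least 1.82-fold. For CCM2L, a relative of the cerebral cavernous malformation gene CCM2, the level was -4.42, -4.57, -3.20, -6.16 and -4.23 in pre-irradiation replicates 1 to 5 and -2.50, -2.81, -1.10, -3.20 and -2.67 in day 2 replicates 1 to 5. The highest pre-irradiation array, replicate 3, reached the lowest day 2 array, replicate 4, so the groups overlapped, while every pair differed in the same direction. CCM2L rose with a difference of 2.06 ± 0.22 (SE, adjusted p = 0.0639), but its probe was well above background on only 1 pre-irradiation array against all 5 day 2 arrays, so no fold is given. Another and much brighter CCM2L probe differed by 0.12.

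PDE5A degrades cyclic GMP in platelets and smooth muscle. Its level was -1.32, -1.93, -2.47, -0.92 and -0.72 in pre-irradiation replicates 1 to 5 and 0.76, -0.95, -1.17, 0.55 and 0.68 in day 2 replicates 1 to 5. Replicates 2 and 3 were the lowest at day 2 and overlapped with the pre-irradiation arrays, although each was above its own pre-irradiation value. PDE5A rose by 1.44 ± 0.18 (SE), or 2.72-fold (adjusted p = 0.0965). The platelet genes described below were higher in the same pairs, by a median of 1.72, 0.42, 0.98, 1.16 and 1.15 in pairs 1 to 5, and their part in the PDE5A result was not tested. CA13, a cytosolic carbonic anhydrase, was well above background on 3 pre-irradiation and 4 day 2 arrays. Its level was -2.80, -6.44, -6.07, -2.90 and -2.72 in pre-irradiation replicates 1 to 5 and -0.75, -5.11, -3.01, -1.12 and -0.30 in day 2 replicates 1 to 5, so replicates 2 and 3 started far below the other three and replicate 2 ended lowest. CA13 rose by 2.13 ± 0.25 (SE), or 4.38-fold (adjusted p = 0.0869), with overlapping groups. The remaining called probe, that of CYP39A1, a hydroxylase of oxysterols, was called at an adjusted p-value of 0.0869 but was well above background on 0 of the 10 arrays, so no fold is given for it. It entered the test through arrays of days 5 and 30.

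The probes that fell were those of KLRB1 and SPRY2. KLRB1 encodes CD161, a lectin-like receptor of NK cells and of some T cells. Its level was 0.10, -0.61, 0.08, 0.59 and 1.06 in pre-irradiation replicates 1 to 5 and -1.89, -1.37, -1.90, -1.30 and -0.67 in day 2 replicates 1 to 5, and the highest day 2 array lay below the lowest pre-irradiation array. KLRB1 fell by 1.67 ± 0.21 (SE) on the log2 scale, to 31.4% of its pre-irradiation level, with an adjusted p-value of 0.0965. SPRY2, an inhibitor of signalling from receptor tyrosine kinases through the MAP kinase pathway, stood at -1.42, -1.47, -2.01, -0.51 and -0.86 in pre-irradiation replicates 1 to 5 and -2.96, -2.49, -3.05, -1.70 and -2.53 in day 2 replicates 1 to 5. Replicate 4 was the highest array of both groups, and its day 2 level lay above the pre-irradiation level of replicate 3. SPRY2 fell by 1.29 ± 0.16 (SE) on the log2 scale, to 40.9%, with an adjusted p-value of 0.0965 and pair differences from -1.68 to -1.02. Over 18 alternative settings its difference ran from -1.36 to -0.29.

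**Figure D2:**
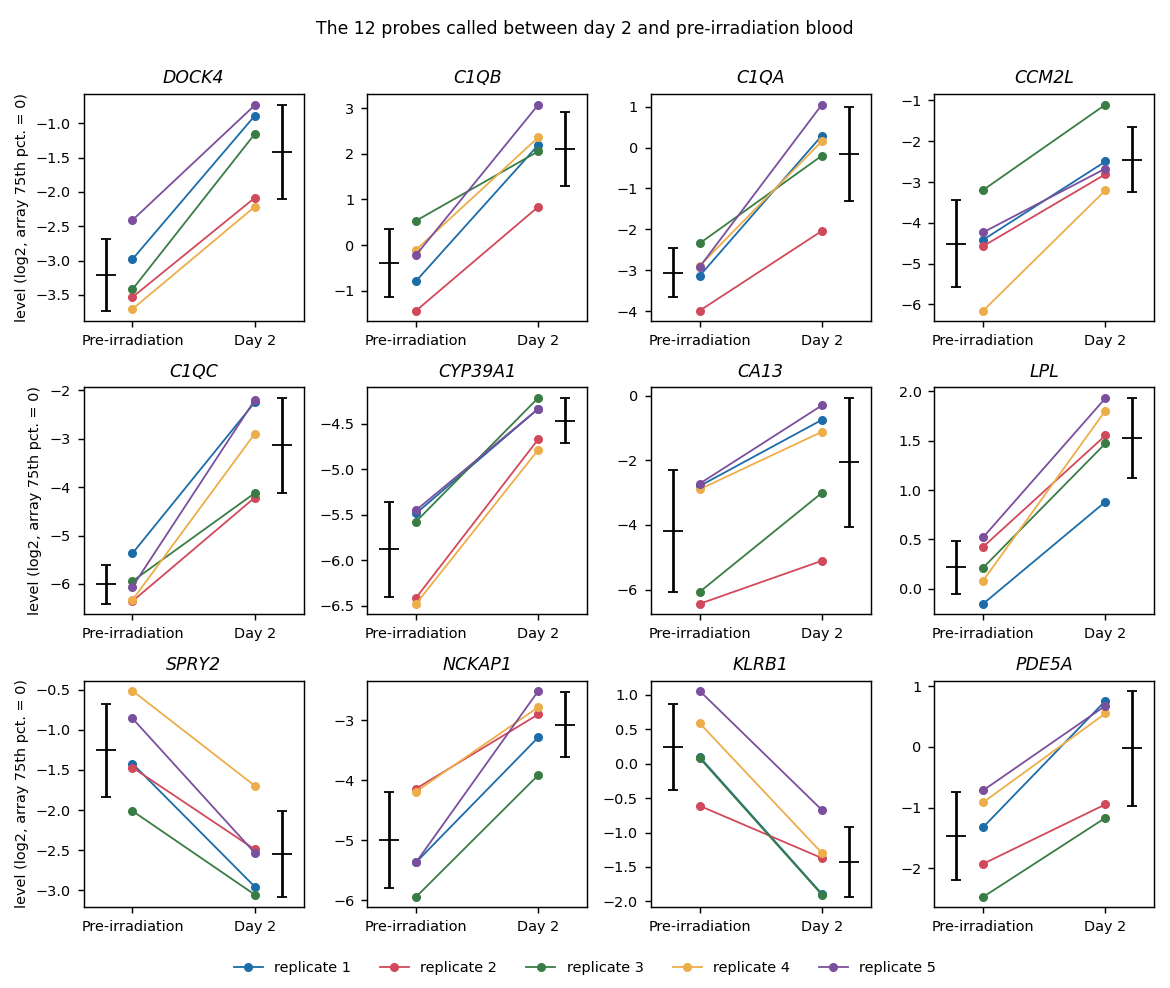
Levels of the 12 called probes on each array (y axis, log2 with the array's 75th percentile at 0; axes differ between panels and do not start at 0). Lines join the arrays of a replicate number and black bars show mean ± SD of 5 arrays. Every line rises in 10 panels and every line falls for SPRY2 and KLRB1, with replicate 2 starting and ending lowest for C1QA, C1QB and CA13.

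Among probes that reached p under 0.005 with every pair in 1 direction, 483 in all, the 12 largest measured increases, 3 of them against a group not well above background (C1QC, HAS1 and ACER2), were those of C1QA, C1QC, C1QB, CLPSL2, HAS1, CA13, CCM2L, PTCRA, ACER2, RAB6B, CLEC4G and ITGB3. CLPSL2, a colipase-like gene, was 2.30 ± 0.47 (SE) higher (adjusted p = 0.157), with 1.39, 0.67, 4.42, 2.35 and 2.67 in pairs 1 to 5. PTCRA, which encodes the alpha chain of the pre-T-cell receptor, was 1.98 ± 0.37 (SE) higher (adjusted p = 0.143), with 2.19, 0.06, 2.68, 2.65 and 2.30. Pair 2 was the smallest for both. CLEC4G, a lectin receptor, was 1.94 ± 0.42 (SE) higher on the named probe and 1.80 higher on another. RAB6B, a GTPase of Golgi traffic, was 1.97 ± 0.38 (SE) higher. HAS1, a hyaluronan synthase, was well above background on 0 pre-irradiation and 3 day 2 arrays and at least 1.55-fold higher (adjusted p = 0.143). ACER2, an alkaline ceramidase, was detected in the same numbers of arrays and was at least 1.6-fold higher (adjusted p = 0.131), while a brighter ACER2 probe differed by 0.01.

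The 12 largest measured decreases by the same rule were those of SAMD3, PITPNM3, GZMA, GZMH, KLRG1, AFAP1L2, VANGL1, KLRC4, KLRC1, KLRB1, EEF1A2 and FASLG. GZMA and GZMH are granzymes, KLRG1, KLRC4, KLRC1 and KLRB1 are killer lectin-like receptors, and FASLG is the ligand through which cytotoxic lymphocytes engage the death receptor Fas. SAMD3, which has a sterile alpha motif domain, differed by -2.22 ± 0.33 (SE, adjusted p = 0.131), with signal well above background on 4 pre-irradiation arrays and only 1 day 2 array, and its other probe differed by -2.19. FASLG stood at -1.62, -2.19, -1.41, -1.91 and -1.73 in pre-irradiation replicates 1 to 5 and -2.72, -3.22, -3.79, -3.61 and -3.36 in day 2 replicates 1 to 5. The groups did not overlap, and the difference was -1.57 ± 0.22 (SE, adjusted p = 0.131). AFAP1L2, an adaptor of the Src kinase, differed by -1.82 ± 0.27 (SE), also without overlap. PITPNM3 and EEF1A2 were well above background on only 1 day 2 array each. KLRG1 was well above background on 1 pre-irradiation and 0 day 2 arrays, at least 1.11-fold lower (adjusted p = 0.131), and with normexp background correction the differences of KLRG1, PITPNM3 and EEF1A2 changed sign, to 0.30, 0.03 and 0.17.

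Genes of platelets were higher at day 2, with the highest share of members at p under 0.005 of all lists in that direction. Of 51 platelet genes, 46 were tested, 45 were higher and 25 (54.3%, against 1.9% of all probes) reached p under 0.005. Because the list was chosen with earlier results of these data known, this share is a description and not a test. The median difference was 1.11, against -0.04 over all tested probes. The single member below 0 was TPM1, at -0.19 (adjusted p = 0.791). The count was 12 without the pairing, 16 with normexp background correction and 6 in a paired test without spread shared between probes.

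By role, 10 of 14 tested surface receptors reached p under 0.005. These included ITGA2B and ITGB3, the chains of the fibrinogen receptor, with differences of 1.45 ± 0.30 and 1.94 ± 0.40 (SE), the adhesion molecule SELP with 1.65 ± 0.30, the ADP receptor P2RY12 with 1.45 ± 0.23, and GP9 of the von Willebrand factor receptor with 0.99 ± 0.18. Among 13 tested genes of granule cargo, 9 reached it. The level of PF4, the chemokine platelet factor 4, was 5.94, 5.86, 4.21, 5.88 and 5.67 in pre-irradiation replicates 1 to 5 and 7.93, 6.26, 5.96, 7.23 and 7.56 in day 2 replicates 1 to 5. The groups did not overlap, although replicate 2 at day 2 stood only 0.40 above its pre-irradiation level. PF4 was 1.47 ± 0.25 (SE) higher, or 2.78-fold (adjusted p = 0.138). PPBP, another platelet chemokine, was 1.55 ± 0.27 higher, VWF, the von Willebrand factor, was 1.42 ± 0.22 higher and NRGN, or neurogranin, was 1.41 ± 0.22 higher. Of the cytoskeletal and signalling genes, 5 of 15 reached p under 0.005, led in size by TUBB1, the platelet beta-tubulin, with 1.69 ± 0.28 (SE). Of the 4 megakaryocyte transcription factors, MEIS1 did so with 1.25 ± 0.23 (SE). The other members at p under 0.005 were GP1BB, CLEC1B, TREML1, CD9 and ESAM on the surface, PF4V1, CLU, F13A1 and TIMP1 in granules, and CTTN, RGS18, GUCY1A3 and PRKAR2B inside the cell, and the 25 together spanned 0.97 to 1.94. Another GUCY1A3 probe differed by 0.61 and did not reach p under 0.005. EGF, the epidermal growth factor, was well above background on 0 pre-irradiation and 4 day 2 arrays and was at least 1.55-fold higher (adjusted p = 0.143).

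The platelet median was higher in every pair, by 1.72, 0.42, 0.98, 1.16 and 1.15 in pairs 1 to 5. Set against the mean of the pre-irradiation arrays, the list stood between -0.35 and 0.27 on the pre-irradiation arrays and between 0.42 and 1.76 on the day 2 arrays, with no overlap. Replicates 2 and 3 were the lowest at day 2. Between the pre-irradiation and day 2 arrays of the same slide, which come from different replicate numbers, the platelet median lay between 0.12 and 1.52.

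Genes of NK and cytotoxic cells were lower at day 2. Of 31 genes, 28 were tested, 25 were lower and 17 (60.7%, against 0.656% of all probes) were lower at p under 0.005. As with platelets, the list was chosen with earlier results known, and the share is a description. The median difference was -1.06. Each of the 17, which were picked by p in a fit of these same pairs, was lower in every pair, with differences from -1.88 to -0.86. The count was 10 without replicate 3, 11 with normexp background correction and 3 in a paired test without spread shared between probes.

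All 8 killer lectin-like receptors were lower and 6 reached the threshold, among them KLRD1 (CD94) with -1.56 ± 0.33 (SE), its partner KLRC1 (NKG2A), well above background on 5 pre-irradiation and 2 day 2 arrays, with -1.71 ± 0.35, and KLRF1 with -1.41 ± 0.26. The list used another KLRG1 probe than the one named above, which differed by -0.93 (adjusted p = 0.291). Members of the KLRC family are close relatives, and their probes may share signal. Of 12 granule proteins, 11 were lower and 7 reached the threshold. GZMA, granzyme A, stood at -1.23, -0.17, -0.94, -0.97 and 0.36 in pre-irradiation replicates 1 to 5 and -2.97, -1.29, -3.04, -2.22 and -2.84 in day 2 replicates 1 to 5. The groups did not overlap, replicate 5 was the highest before irradiation and had the largest difference, and the mean difference was -1.88 ± 0.30 (SE), or 27.2% of pre-irradiation (adjusted p = 0.131). PRF1, the pore-forming perforin, stood at 0.43, -0.72, 0.79, 0.47 and 0.48 in pre-irradiation replicates 1 to 5 and -0.77, -0.95, -1.08, -0.90 and -1.95 in day 2 replicates 1 to 5. It differed by -1.42 ± 0.29 (SE, adjusted p = 0.157), with no overlap and with the smallest difference, -0.23, in pair 2. GNLY, or granulysin, differed by -1.34 ± 0.22, NKG7 by -1.32 ± 0.29, GZMB by -1.27 ± 0.31 and GZMK by -0.99 ± 0.16 (SE). The transcription factors EOMES and TBX21, which set the cytotoxic programme, differed by -1.42 ± 0.25 and -0.99 ± 0.18 (SE), and the interleukin receptor chain IL2RB by -0.86 ± 0.20. KLRK1 (NKG2D) and the chemokine XCL1 also reached the threshold, with -1.18 ± 0.27 and -0.99 ± 0.23 (SE), but with normexp background correction their differences turned to 0.05 and 0.34.

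The member that was higher at p under 0.005 was FCGR3A (CD16), an Fc receptor of NK cells that monocytes carry as well, with 0.69 ± 0.18 (SE). SRGN, a granule proteoglycan that platelets and myeloid cells also make, was 0.78 (adjusted p = 0.229). The NK marker NCR1 was -0.53 (adjusted p = 0.28), and another NCR1 probe differed by -1.18, also not at p under 0.005. The list median was lower in every pair, by -1.15, -0.32, -1.52, -0.94 and -1.73 in pairs 1 to 5. Relative to the pre-irradiation mean, the list lay between -0.52 and 0.24 before irradiation and between -1.41 and -0.93 at day 2, without overlap. Replicate 2 was lowest of the pre-irradiation arrays, and at day 2 it lay between the others. Within slides the median lay between -1.30 and -0.92.

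**Figure D3:**
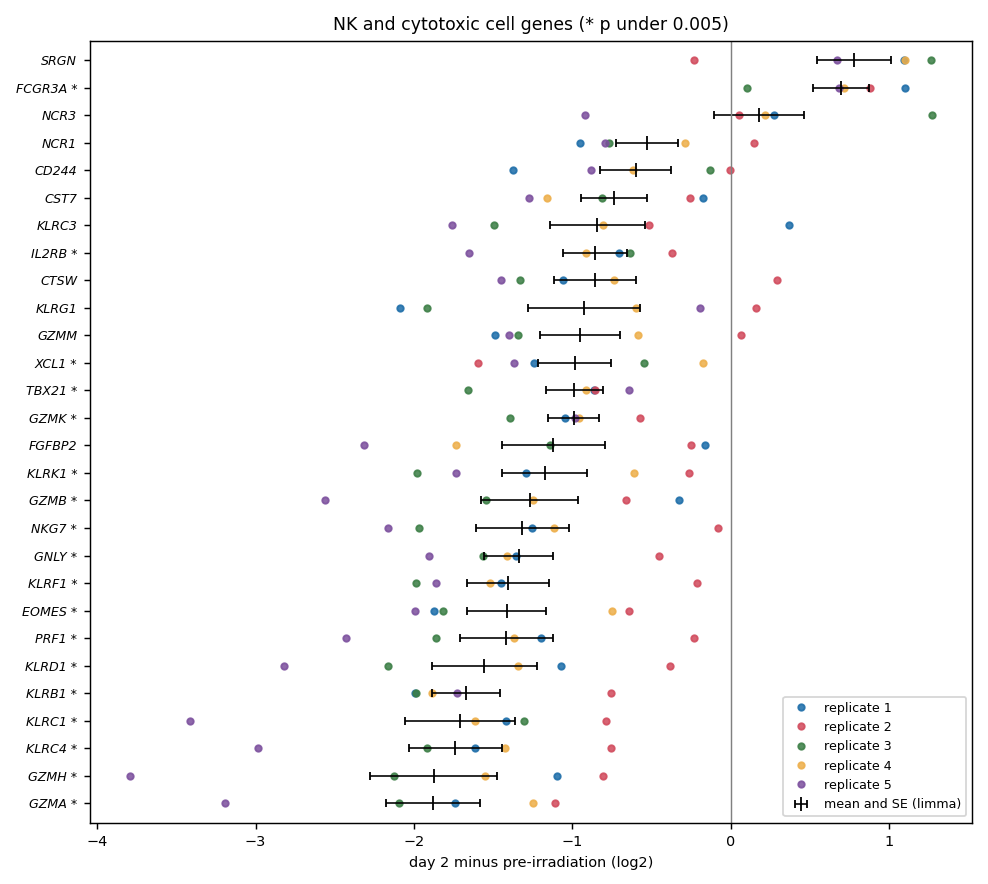
Difference between day 2 and pre-irradiation (x axis, log2) for the 28 tested NK and cytotoxic genes, with each pair as a coloured point and the mean ± SE of the limma model in black. Replicate 2 lies nearest 0 for most genes and replicate 5 is the lowest for the granzymes GZMA, GZMB and GZMH, and FCGR3A, SRGN and NCR3 are the members above 0.

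Other lymphocyte genes were lower by smaller amounts. Of 35 tested T cell genes, 32 were lower, with a median of -0.42, and 3 (8.57%, against 0.656% of all probes) were lower at p under 0.005, which were TBX21, the co-receptor chain CD8A with -0.86 ± 0.17 (SE) and the adhesion molecule CD2 with -0.65 ± 0.17. The T cell receptor chains CD3D, CD3G and CD3E were -0.57 (adjusted p = 0.236), -0.63 (adjusted p = 0.236) and -0.20 (adjusted p = 0.607), and the T cell marker CD5 was -0.30 (adjusted p = 0.355). Other probes of CD8A and CD2 differed by -0.43 and -0.75, not at p under 0.005. The T cell median was below 0 in every pair, from -0.79 in pair 1 to -0.11 in pair 2. The chemokine receptor CXCR6, which effector lymphocytes carry, reached p under 0.005 with -1.19 ± 0.18 (SE), though it was 0.01 with normexp background correction.

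Of 25 tested B cell genes, 23 were lower with a median of -0.48, and 0 reached p under 0.005 in limma. At p under 0.05, which 2997 of 19961 probes reached in either direction, 15 were lower. A paired test without spread shared between probes gave 0 at p under 0.005. The antigen receptor chains CD79A and CD79B were -0.58 (adjusted p = 0.234) and -0.63 (adjusted p = 0.277), and the kinase BLK was -0.45 (adjusted p = 0.306). The B cell median was below 0 in all 5 pairs, from -0.95 in pair 3 to -0.09 in pair 5. Of 8 plasma cell genes, 6 were higher with a median of 0.21, and 0 reached p under 0.005 while 1 was lower at p under 0.05. MHC class II genes, which B cells and other antigen-presenting cells use to display peptides, were lower for 15 of 16 members with a median of -0.32, 0 at p under 0.005 and 3 lower at p under 0.05. The GIMAP GTPases of lymphocytes were lower for 5 of 5 with a median of -0.32, 0 at p under 0.005 and 2 at p under 0.05.

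Monocyte and macrophage genes were higher for 22 of 22 tested members, with a median of 0.69. The 4 that reached p under 0.005 (18.2%, against 1.9% of all probes) were the beta-glucan receptor CLEC7A with 0.99 ± 0.16 (SE), the transcription factor CEBPB with 0.80 ± 0.18, the lysosomal protease LGMN with 1.17 ± 0.29 and FCGR3A. Another CLEC7A probe differed by 0.49 and did not reach that threshold. The markers CSF1R, CD163 and CD14 had adjusted p-values from 0.196 for CSF1R to 0.253 for CD14. Of 21 tested complement genes, 17 were higher with a median of 0.52, and 6 (28.6%, against 1.9% of all probes) reached p under 0.005. Besides C1q these included the protease CFD, or factor D, with 1.16 ± 0.22 (SE) and the receptor CD93 with 1.10 ± 0.28. VSIG4, a complement receptor of macrophages, also reached it with 1.43 ± 0.36, well above background on 3 pre-irradiation and 4 day 2 arrays. The regulators CD55 and CD46 were 0.34 and 0.07, with adjusted p-values of 0.389 and 0.875. C1R and C1S, the proteases that C1q carries, were -0.07 (adjusted p = 0.892) and 1.38 (adjusted p = 0.213).

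Toll-like receptors (TLRs) sense microbial products, and LPS is recognised by TLR4 with the help of LY96 (MD-2) and CD14. Of 26 tested genes of this pathway, 20 were higher with a median of 0.58, and 8 (30.8%, against 1.9% of all probes) were higher at p under 0.005. Of 8 tested receptors, TLR1, TLR2, TLR4 and TLR6 reached it, with differences of 0.98, 1.17, 0.95 and 0.88. Another TLR4 probe differed by 0.58 and did not reach it. The level of TLR2 was 2.37, 1.50, 2.59, 0.95 and 2.10 in pre-irradiation replicates 1 to 5 and 3.96, 2.04, 3.91, 2.33 and 3.12 in day 2 replicates 1 to 5. The groups overlapped, each pair was higher, and the difference was 1.17 ± 0.19 (SE, adjusted p = 0.131). LY96 was 1.17 ± 0.18 (SE) higher, the adaptor MYD88 0.99 ± 0.24 and IRAK3, a kinase-like protein that damps TLR signals, 1.14 ± 0.27. The eighth was CLEC7A, described with the monocyte genes. CD14 was 0.58 (adjusted p = 0.253).

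The interleukin 1 system carries TLR signals forward. Of 20 tested genes, 16 were higher with a median of 0.53, and 3 (15%, against 1.9% of all probes) reached p under 0.005. They were IL1B, the cytokine itself, with 0.86 ± 0.16 (SE), IL1RAP, the accessory receptor chain, with 1.26 ± 0.31, and IL1R2, the decoy receptor, with 1.41 ± 0.28. Another IL1RAP probe differed by 0.96 and did not reach that threshold. The signalling receptor IL1R1 was 1.29 (adjusted p = 0.202). Another IL1R1 probe, well above background on 0 pre-irradiation and 4 day 2 arrays, was at least 1.32-fold higher (adjusted p = 0.22). Of 26 tested cytokine, TNF and NF-kB genes, 18 were higher with a median of 0.34, and 2 (7.69%, against 1.9% of all probes) reached p under 0.005. These were the chains of the interferon gamma receptor, IFNGR1 with 1.10 ± 0.27 and IFNGR2 with 0.93 ± 0.23 (SE). Both were below 0 in pair 2, at -0.02 and -0.05. Among 19 tested chemokines and receptors, 12 were lower with a median of -0.09. At p under 0.005, 2 receptors (10.5%, against 0.656% of all probes), CXCR6 among them, were lower. The 1 higher at that threshold (5.26%, against 1.9%) was the neutrophil attractant CXCL2 with 1.23 ± 0.19 (SE). Its probe was well above background on 3 pre-irradiation and 5 day 2 arrays. Of 8 tested coagulation genes, 2 (25%, against 1.9% of all probes) were higher at p under 0.005, and both are inhibitors of clotting. These were THBD (thrombomodulin) with 1.39 ± 0.20 and TFPI, the tissue factor pathway inhibitor, with 1.55 ± 0.40 (SE). This TFPI probe was well above background on 2 pre-irradiation and 5 day 2 arrays, and the 3 TFPI probes ranged from 0.77 to 1.55. Only 1 of these 2 coagulation genes was higher in every pair. The median of the coagulation list was 0.98, -0.22, 1.71, 1.32 and -0.09 in pairs 1 to 5. In the TGF-beta list of 18 tested genes the latency protein LTBP1, also found in platelets, was 1.59 ± 0.31 (SE) higher. The signal transducer SMAD3 differed by -0.59 ± 0.14 (SE), with nearly equal values in all pairs, -0.65, -0.49, -0.51, -0.62 and -0.67. At p under 0.005 they were the 1 higher member (5.56%, against 1.9% of all probes) and the 1 lower member (5.56%, against 0.656%).

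Genes of mature neutrophils were mostly higher but varied between pairs. Of 22 tested, 21 were higher with a median of 0.99, and 2 (9.09%, against 1.9% of all probes) reached p under 0.005, which were the G-CSF receptor CSF3R with a 2-fold difference and the decoy death receptor TNFRSF10C with 1.24 ± 0.29 (SE). The interleukin 8 receptors CXCR1 and CXCR2 were 1.01 (adjusted p = 0.197) and 1.06 (adjusted p = 0.235). The list median was 1.08, -0.08, 2.02, 1.36 and 0.16 in pairs 1 to 5, so that pairs 1, 3 and 4 were high and pairs 2 and 5 near 0. Of 15 tested neutrophil granule genes, 14 were higher with a median of 0.66, and 0 reached p under 0.005 in limma. At p under 0.05 there were 5, against 2997 of 19961 probes in either direction. The paired test without shared spread gave 0 at p under 0.005. LCN2, or lipocalin, had the largest difference, 1.89 ± 0.74 (SE, adjusted p = 0.3), and ranged from -1.06 in pair 2 to 5.06 in pair 3. CAMP, MPO and LTF were 0.96, 0.69 and 0.02, with adjusted p-values from 0.258 to 0.988.

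Interferon-stimulated genes had the widest spread between pairs of the 27 lists. Of 36 tested, 35 were higher on average with a median of 0.86. In limma 0 reached p under 0.005 and 6 were at p under 0.05, against 2997 of 19961 over all probes. The paired test without shared spread gave 0 at p under 0.005. All 36 were higher in pair 1 and all 36 in pair 2, while 5 were higher in pair 3, 11 in pair 4 and 31 in pair 5. The list median was 2.90, 1.70, -0.59, -0.55 and 0.38 in these pairs. ISG15, a ubiquitin-like protein and one of the genes most strongly induced by type I interferon, stood at 1.25, 0.15, 4.55, 1.78 and 2.56 in pre-irradiation replicates 1 to 5 and 8.18, 4.49, 2.59, 0.08 and 2.96 in day 2 replicates 1 to 5. Replicate 1 was far above the others at day 2, and replicate 3 was the highest before irradiation. The mean difference of ISG15 was 1.60 ± 1.26 (SE, adjusted p = 0.564). IFIT1, MX1 and RSAD2, antiviral effectors, had differences of 4.98, 2.77, -0.15, -1.34 and 0.64 for IFIT1, 3.96, 2.92, -0.58, -0.51 and -0.30 for MX1 and 5.60, 2.90, -1.89, -0.19 and 0.05 for RSAD2 in pairs 1 to 5. IDO1, an enzyme that degrades tryptophan, had the smallest p-value of the list, with 1.11 ± 0.29 (SE, adjusted p = 0.196) and all pairs higher. Leaving out replicate 1 put the list median at 0.25. The list level on the pre-irradiation arrays alone spanned -1.02 in replicate 2 to 1.48 in replicate 3.

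Targets of p53 and genes used to estimate radiation dose from blood were mostly higher. Of 31 tested, 25 were higher with a median of 0.38, and 2 (6.45%, against 1.9% of all probes) reached p under 0.005. These were BBC3 (PUMA), an activator of apoptosis, and MDM2, the ubiquitin ligase that degrades p53. The BBC3 level was 3.42, 3.32, 3.35, 3.13 and 3.51 in pre-irradiation replicates 1 to 5 and 4.35, 3.54, 4.95, 4.32 and 4.44 in day 2 replicates 1 to 5. The groups did not overlap, and BBC3 was 0.98 ± 0.21 (SE) higher, or 1.97-fold (adjusted p = 0.166), least so in pair 2. MDM2 was 0.61 ± 0.15 (SE) higher (adjusted p = 0.193) on the probe used for the list, and its 3 probes ranged from 0.61 to 1.25.

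The apoptosis gene PMAIP1 (NOXA) was 0.67 (adjusted p = 0.21) and the repair gene DDB2 0.52 (adjusted p = 0.218), with all 5 pairs higher for both. CDKN1A (p21), which arrests the cell cycle, had the largest mean difference, 1.26 ± 0.43 (SE), at an adjusted p of 0.258, from a probe well above background on 2 pre-irradiation and 5 day 2 arrays. Its pair differences were 3.16, 0.55, 0.24, 0.31 and 2.05, so it was high in pairs 1 and 5 and low in the other three. Differences of other dosimetry genes were smaller, with 0.47 (adjusted p = 0.337) for XPC, 0.38 (adjusted p = 0.437) for PCNA, 0.38 (adjusted p = 0.312) for PHLDA3, 0.29 (adjusted p = 0.394) for BAX and 0.26 (adjusted p = 0.504) for FDXR. Of the 7 cell cycle arrest genes, 4 were below 0, among them CCNG1 and GADD45A with -0.05 and -0.03. Relative to the pre-irradiation mean, the list stood between -0.07 and 0.10 before irradiation and between 0.12 and 0.54 at day 2, without overlap, with pair medians of 0.61, -0.07, 0.44, 0.19 and 0.37. Genes of DNA damage signalling and repair were lower for 16 of 24, with a median of -0.19 and 0 at p under 0.005 in limma. At p under 0.05, which 2997 of 19961 probes reached in either direction, 4 were lower and 1 was higher. The paired test without shared spread put 2 at p under 0.005. PARP1, which senses DNA strand breaks, was -0.43 (adjusted p = 0.242). Of 22 proliferation genes, 13 were higher with a median of 0.06 and 0 at p under 0.005, while 4 were higher and 1 was lower at p under 0.05, with MKI67, the proliferation marker Ki-67, at -0.31 (adjusted p = 0.48), and its probes differed in sign.

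**Figure D4:**
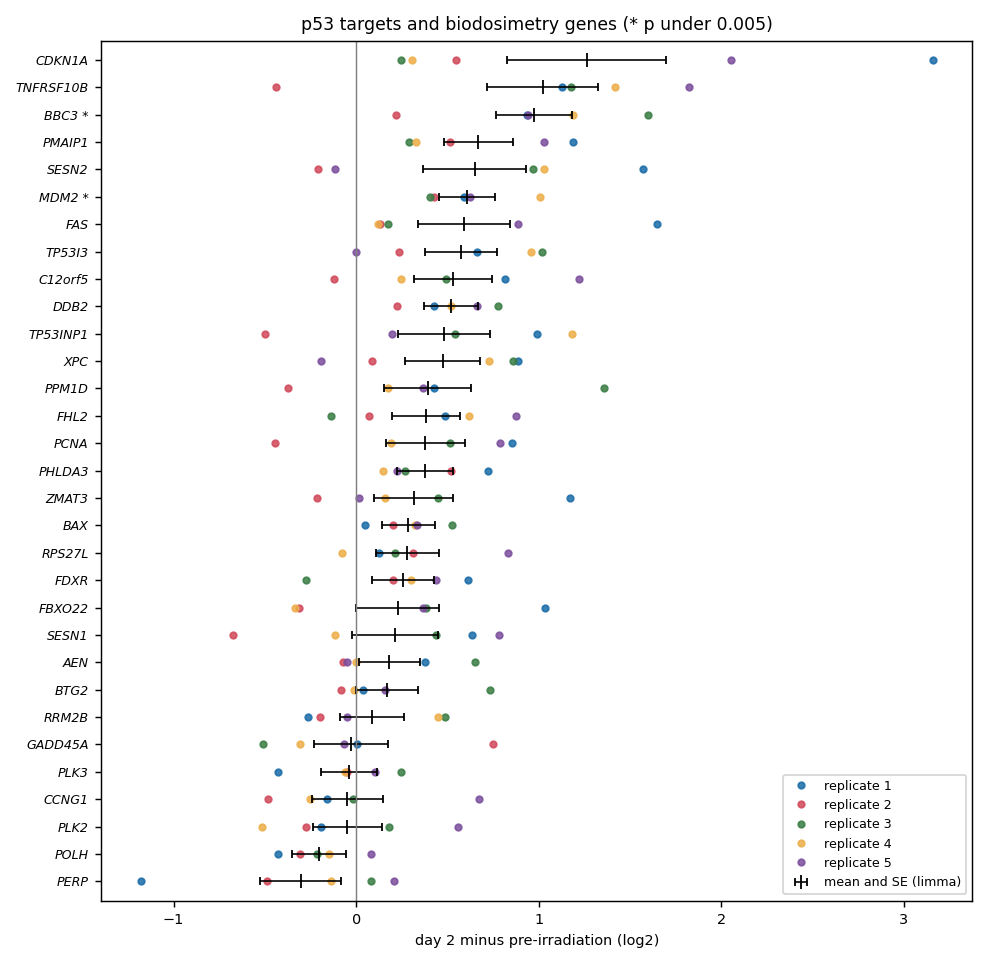
Difference between day 2 and pre-irradiation (x axis, log2) for the 31 tested p53 targets and dosimetry genes, with each pair as a coloured point and the mean ± SE of the limma model in black. CDKN1A has the largest mean but rests on replicates 1 and 5, while BBC3 and MDM2 (stars, p under 0.005) are above 0 in all 5 replicates.

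Red cell genes had no common direction. Of 31 tested erythroid genes, 15 were higher and 16 lower with a median of -0.02. At p under 0.005, 1 (3.23%, against 1.9% of all probes) was higher, the mitochondrial iron importer SLC25A37 with 0.85 ± 0.19 (SE). The globins HBA2 and HBB, whose transcripts the depletion step targets, differed by 0.03 and -0.02, with pair values of -0.25, 0.29, -0.14, 0.16 and -0.18 for HBB. The erythroid median varied widely between pairs, 0.27, 0.92, -0.48, 0.16 and -0.83, with pair 2 highest and pair 5 lowest. Genes of heme, iron and antioxidant handling were higher for 21 of 27 with a median of 0.33. The 1 at p under 0.005 (3.7%, against 1.9% of all probes) was the iron exporter SLC40A1 (ferroportin) with 1.16 ± 0.20 (SE). Genes that glucocorticoids induce were higher for 14 of 16 with a median of 0.37, of which IL1R2 reached the threshold (6.25%, against 1.9% of all probes). FKBP5, TSC22D3 and PER1 were 0.44 (adjusted p = 0.474), 0.86 (adjusted p = 0.247) and 0.12 (adjusted p = 0.83) higher.

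Cytosolic ribosomal proteins were lower for 53 of 59 genes by a small median, -0.20, with 0 at p under 0.005 and 1 at p under 0.05. Over all probes, 2997 of 19961 were at p under 0.05. Of 10 tested dendritic cell genes, 6 were higher and 4 lower, from -0.33 to 1.27, with a median of 0.30. At p under 0.005 there were 0, and 3 were higher at p under 0.05. LILRA4, a receptor of plasmacytoid dendritic cells, was the highest, at 1.27 (adjusted p = 0.211). The list median was 0.17, -0.18, -0.11, -0.14 and 0.57 in pairs 1 to 5. Of 13 tested basophil and eosinophil genes, 9 were higher and 4 lower, with a median of 0.13 and 0 at p under 0.005. At p under 0.05, 2 were higher and 1 was lower. The eosinophil peroxidase EPX had the lowest difference, -1.16 (adjusted p = 0.329), while 5 of 8 tested eosinophil genes were higher. For ribosomal, dendritic cell, basophil and eosinophil genes, as in those of plasma cells, MHC class II and GIMAP genes and proliferation, the paired test without shared spread also gave 0 at p under 0.005.

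Some transcripts passed from undetected to detected. Of the 19961 tested probes, 24 were well above background on 0 pre-irradiation arrays and on at least 4 day 2 arrays, and 8 the other way. Mean differences of the 24 ran as low as 0.15, for FRMD8 (adjusted p = 0.786). By their bounds, SPTB, the erythroid beta-spectrin, was at least 2.01-fold higher (adjusted p = 0.166), NCKAP1 at least 1.82-fold, PODXL2, a sialomucin, at least 1.76-fold (adjusted p = 0.166) and NUCB1, a calcium-binding Golgi protein, at least 1.67-fold (adjusted p = 0.226). In the other direction CEP89, a centrosomal protein, was at least 1.66-fold lower (adjusted p = 0.263). ZFYVE16, an endosomal protein, was at least 1.59-fold higher (adjusted p = 0.248). Single pairs went the other way for NUCB1 (-0.29 in pair 1), ZFYVE16 (-0.10 in pair 2) and CEP89 (0.05 in pair 4). SPTB, NCKAP1 and PODXL2 were higher in every pair. Apart from NCKAP1, no probe of this kind was called.

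The pairs differed in how far they moved. The SD of the log2 differences over all tested probes was 0.77 in pair 1, 0.47 in pair 2, 0.82 in pair 3, 0.60 in pair 4 and 0.58 in pair 5. The number of probes more than 2-fold higher was 1831, 655, 1777, 1307 and 653 in pairs 1 to 5, and the number more than 2-fold lower was 1337, 156, 1625, 470 and 724. Pair 2 thus had the narrowest spread and the fewest decreases. It also had the smallest differences in the lists of platelets, NK cells, T cells, TLR genes and neutrophils, while its interferon and erythroid medians were among the highest. C1QA and C1QB were higher in pair 2 as in the others, by 1.95 and 2.28 for C1QA and C1QB.

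**Figure D5:**
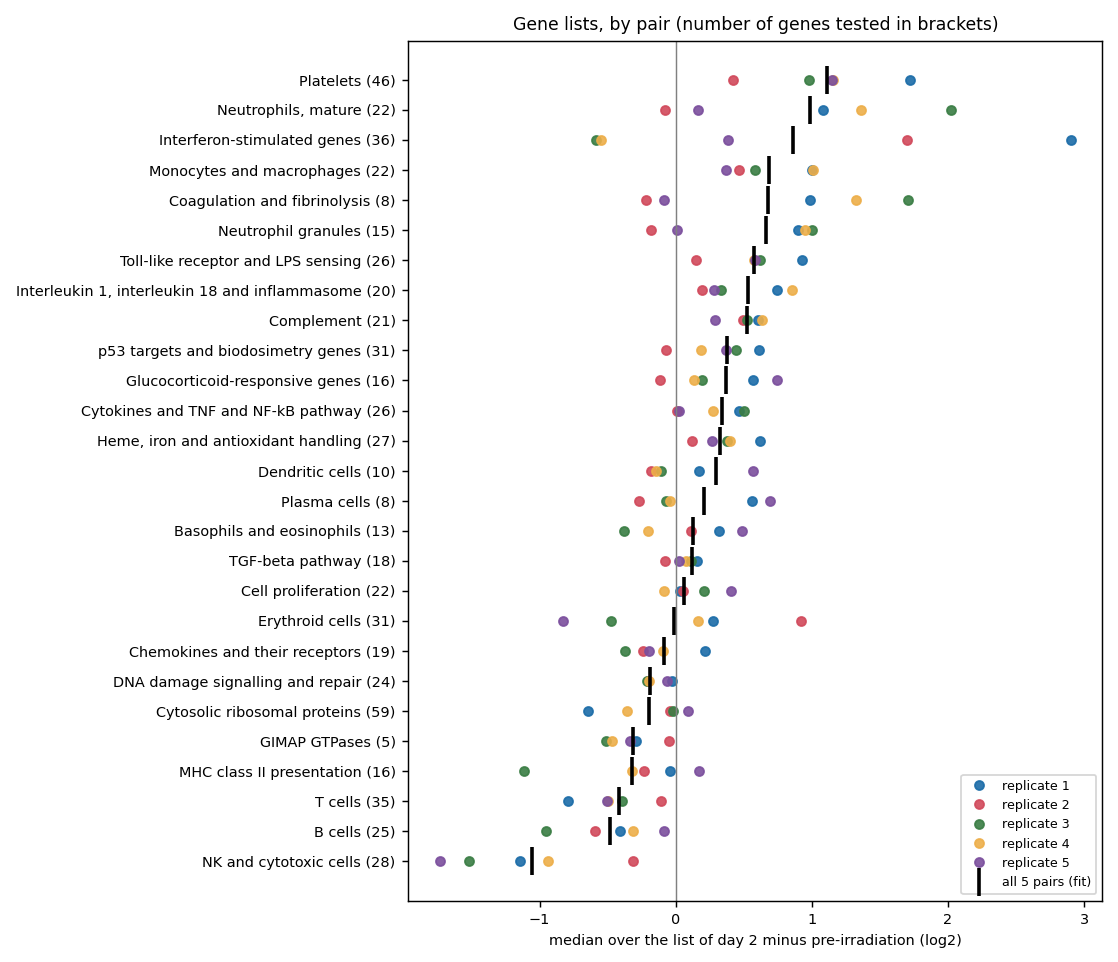
Median difference between day 2 and pre-irradiation (x axis, log2) of each gene list in each pair (coloured points), with the median of the fitted differences over 5 pairs as a black bar. Platelets, monocytes, TLR genes, the interleukin 1 system and complement are above 0 and NK, T and B cell lists below 0 in all pairs, while interferon-stimulated genes run from -0.59 to 2.90.

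Values of days 5 and 30 against the same pre-irradiation arrays are set beside those of day 2 as a description, since the comparisons share those arrays. C1QA and C1QB were 1.62 and 1.39 at day 5 and 0.43 and 0.29 at day 30. LPL was 0.75 and 0.54, DOCK4 1.14 and 1.25, SPRY2 -1.07 and 0.00, and KLRB1 -0.37 and 0.62. The medians of the platelet list were 0.35 at day 5 and 0.02 at day 30, those of the NK list -0.72 and 0.00, and those of the mature neutrophil list 0.61 and 0.81.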

How the data were processed

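Whole blood of rhesus macaques was stabilised in PAXgene tubes, and globin-depleted RNA was hybridised to 1-colour Agilent Whole Human Genome arrays, as the labels state. The deposited scanner files hold spot intensity values that the authors extracted with Agilent Feature Extraction, version 12.0.2.2 per the file headers and 10.7 per the submitters' processing notes, with background subtracted and no scaling between arrays. The authors also deposited log2 values of 5884 of these probes, which equal log2 processed intensity plus a constant per array (within 0.001), and they made class comparisons in BRB Array Tools. The number of arrays, 5 per group, limits the precision.

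Here log2 processed signal minus the array's 75th percentile over non-control spots was used. Outlier spots were dropped, and replicate spots of a probe were averaged. Probes well above background on at least 5 of the 20 arrays and measured in at least 4 pairs were tested (19961 of 34127), of which 17356 carried a gene symbol. Symbols came from the array files, and 11732 of 13419 were also rhesus gene names in RefSeq. Paired comparisons with thresholds of p under 0.005 and a false discovery rate under 10%, as in the study's methods, were fitted with limma 3.58.1 in R 4.3.3 over the 10 arrays, with Benjamini-Hochberg adjustment over all tested probes. Python 3.11.15, pandas 2.3.3, numpy 2.4.6 and matplotlib 3.10.9 did the rest. The fit was tested on simulated data.

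The replicate number was used as a block. Deviations from the group means of arrays with the same number correlated between 0.173 and 0.482. Between different numbers the correlations ran from -0.507 to 0.260, so these ranges overlapped. Of 5 day 2 arrays, 4 correlated best with their own number. Described by name were called probes, the 12 largest increases and decreases at p under 0.005 with all pairs in 1 direction, list members at p under 0.005 (or with the smallest p) and defining markers, and the 6 largest bounds of probes detected in 1 group. A further few list members were named for their roles. A list gene was read from its brightest tested probe. Of 155 genes followed, 33 had several tested probes, which differed in sign for MKI67. The genes and the 27 lists (703 genes, 18 of them in more than 1 list) were chosen with earlier results of these data known. Other scaling, background correction (normexp with an offset of 50), filters, blocks, spread models and the deposited log2 values were tried, and each replicate was left out in turn. Promoter sequences were not used here. A few items withheld for evaluation are not reported here.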

Additional observations from a re-analysis of the deposited data

Results flagged for a closer look

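In 114 groups of 5 arrays checked for an array far from the others, 5 held one, and chance gives about 1 in 20 groups. The gap of such an array to its nearest neighbour is given as a share of the group's whole range. ITGB3 stood at -5.98 on pre-irradiation replicate 3, against -3.50 to -2.52 on the other pre-irradiation arrays, a share of 0.717. VANGL1 stood at -3.99 on day 2 replicate 3, against -2.73 to -2.61 on the other day 2 arrays, a share of 0.908. Of the list levels relative to the pre-irradiation mean, that of coagulation genes was 0.98 on pre-irradiation replicate 5, against -0.44 to -0.09 on the others (a share of 0.753), that of GIMAP genes was -0.21 on the same array, against 0.07 to 0.17 (0.734), and that of heme, iron and antioxidant genes was -0.41 on pre-irradiation replicate 4, against 0.08 to 0.20 (0.812).

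KLRB1 was lower at day 2 and higher at day 30 than before irradiation in every pair, and the medians over pairs lay 2.44 apart on the log2 scale. This difference was not tested, and both days share the pre-irradiation arrays.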

How the results depend on the processing

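The number of called probes, 12, was 0 with quantile normalization, normexp background correction, no filter on dim probes, no replicate block, a paired test without spread shared between probes or a false discovery rate under 5%. It was 11 with median scaling (10 of the 12 among them), 190 over probes well above background on all 20 arrays (6 of the 12), 200 with an intensity trend in the spread (11 of the 12), 327 with the deposited log2 values (7 of the 12) and 343 in a fit of all 20 arrays with the replicate block (12 of the 12). With the slide as a block it was 1, which was COL11A2, named after its values were seen. Leaving out a replicate gave 0 to 588, with C1QC, C1QB and SECTM1 the 3 called without replicate 3. The sizes of the 12 also moved with the setting. C1QA ran from 1.57 to 3.15, C1QB from 1.77 to 2.75, C1QC from 0.93 to 3.14 and CCM2L from 0.78 to 2.18. KLRB1 ran from -1.90 to -0.82 and SPRY2 from -1.36 to -0.29. C1QB was still called in 9 of 18 alternatives, SPRY2 in 8 of 18 and NCKAP1 in 4 of 15. The deposited values cover only 5884 probes, and the cause of all these moves was not tested.

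The 510 probes at p under 0.005, of 19961 tested, became 173 with normexp and 241 without the replicate block (137 higher and 104 lower). They became 320 with the slide as a block, 227 in the paired test without shared spread and 224 to 834 with a replicate left out. With the deposited values there were 327, but these values cover only 5884 probes, so the counts have unlike bases. The 25 platelet genes became 16 with normexp, 12 without the replicate block, 6 in the paired test without shared spread and 18 to 28 with a replicate left out. The 17 NK genes became 11 with normexp, 3 in the paired test without shared spread and 10 to 18 with a replicate left out.

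Normexp moved the median of all probes from -0.04 to 0.166. Of 432 values of the 27 list medians, 17 moved by more than the spread between pairs. With normexp they were 0.31 for monocytes, -0.0534 for DNA repair, 0.30 for proliferation, 0.0509 for the cytokine and TNF list, -0.33 for chemokines, 0.0198 for TGF-beta, -0.70 for GIMAP, 0.00426 for heme and iron and -0.69 for ribosomal proteins. With the deposited values, over only the list members among their 5884 probes, they were 0.66 for dendritic cells, -0.10 for DNA repair and 0.90 for TLR genes. They were -0.39 for chemokines, 0.44 for TGF-beta and 0.61 for heme and iron. TGF-beta was -0.0387 over probes well above background on all 20 arrays or on at least 5 of the 10. Of 2712 values of 155 genes, 6 changed sign, all with normexp, to 0.0302 for PITPNM3, 0.30 for KLRG1, 0.17 for EEF1A2, 0.048 for KLRK1, 0.34 for XCL1 and 0.00677 for CXCR6. Of these 6, CXCR6 was well above background on all 10 arrays and the others were not on at least 1, and the cause of the sign changes was not tested. Other gene values were graded weaker, 79 of them in the paired test without shared spread, 54 with normexp and 47 with the slide as a block. In each of these settings 1 was graded stronger. The paired test leaves the differences as they are and alters only their errors and p-values.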
